A study of Mus musculus with 6 samples.

Results

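The RNA-binding proteins of the STAR family and several regulators of splicing and message stability were followed in mouse CD4 T cells with and without vasoactive intestinal peptide (VIP), a neuropeptide that signals to lymphocytes through G protein-coupled receptors and cyclic AMP. The members are 7 genes, namely Khdrbs1, Khdrbs2, Khdrbs3, Qk, Hnrnpll, Srsf1 and Elavl1. They were chosen by the gene name that the array files give to a probe, which yields 20 of the 41174 probes. The files call Hnrnpll and Srsf1 by their older names, Hnrpll and Sfrs1. Of the 7 genes, 6 passed the filters on signal and on marked spots, as did 18854 genes in all. The choice was made with the effect of VIP on these genes known, so their ratios are given as a description with an error and without a test.

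The cells were resting CD4 T cells of the spleen of C57BL/6J mice, males and females aged 6 to 32 weeks, taken out with magnetic beads against CD4. Each sample pooled 5 to 10 spleens, so a value is an average over several animals of mixed age. VIP-treated cells and untreated cells of the same kind were labelled in different dyes and hybridised together on a 2-colour array, 1 array for each of 6 biological replicates, so n is 6 samples per treatment. The red dye Cy5 marked the VIP-treated RNA of replicates 1, 3 and 5 and the green dye Cy3 that of replicates 2, 4 and 6. The sources used here give neither the concentration of VIP nor the duration of treatment.

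STAR proteins (signal transduction and activation of RNA) bind single-stranded RNA through an extended KH domain and often act as dimers on paired short motifs rich in U and A. Khdrbs1 encodes SAM68, a substrate of Src-family kinases in T cells that links receptor signalling to alternative splicing, and Khdrbs2 and Khdrbs3 encode its relatives SLM-1 and SLM-2 (T-STAR). Qk encodes quaking, another STAR protein, best known for splicing in myelinating cells. Hnrnpll drives the skipping of variable exons of the CD45 message as T cells pass from the naive to the memory state, Srsf1 is a founding SR protein of exon definition, and Elavl1 encodes HuR, which binds AU-rich elements and stabilises messages.

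Sequences are shown for the probe that carried the one large difference and for 1 stretch or probe each of 4 members to which it is compared. For Khdrbs1, Elavl1 and Srsf1 these are not from the brightest probe, on which their levels and main ratios rest. Letters are written 5′ to 3′ as on the array, and capitals mark TAAA, the DNA form of the UAAA core that STAR proteins of the SAM68 group prefer. For Khdrbs3 the last 30 bases of its only probe are given, and for Khdrbs1 the 26 bases that a pair of its probes have in common, which makes those readings partly the same measurement. The Hnrnpll probe covers 1143 bases of genome with 60 bases of sequence, so it joins parts of the message that are 1083 bases apart beyond its own length. The Elavl1 and Srsf1 probes can each be read in at least 1 frame without a stop codon.
Khdrbs3: caaagtctcctcttgcttgatacTAAAtaa
Khdrbs1: aacaaacaggagggaaaaatatcagt
Hnrnpll: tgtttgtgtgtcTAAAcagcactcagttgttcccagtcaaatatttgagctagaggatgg
Elavl1: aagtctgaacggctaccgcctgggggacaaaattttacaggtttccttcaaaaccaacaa
Srsf1: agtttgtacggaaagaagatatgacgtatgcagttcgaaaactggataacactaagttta

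TAAA was found in 9 of the 20 member probes (45%), against 32.0% of all probes on the array. The reverse complement TTTA was in 5 of them (25%), against 32.5% of all. The median GC content was 35.8% in the member probes and 40% over the array. These are features of the array's probes and say nothing of where a protein binds.

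Khdrbs3 had the largest difference of the 6 measured members. Its probe (A_51_P425962) lies on chromosome 15 at 68923876 to 68923935, plus strand; all positions are on mm9, and no exon annotation of that build was used here. Levels are log2 intensities of each channel after normalisation, and they are compared only within a probe. In the VIP-treated cells the 6 levels were lowest at 12.49, had a median of 12.93 and were highest at 13.43. In the untreated cells they were lowest at 11.86, had a median of 12.15 and were highest at 12.37. The treatments therefore did not overlap, which among the 16850 genes measured on all 6 arrays held for 0.231% in this direction and 0.0712% in the other. Both channels were well above background on all 6 arrays.

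The ratio of VIP over untreated for Khdrbs3 was positive on every array. As measured, the log2 ratio was 0.50, 0.63 and 0.52 on replicates 1, 3 and 5, where VIP carried Cy5. It was 1.34, 0.79 and 1.08 on replicates 2, 4 and 6, where VIP carried Cy3. The ratios with VIP in Cy3 were thus all above those with VIP in Cy5, and the fitted dye effect of this probe was -0.26 (Cy5 over Cy3). With the dye effect taken out, the log2 ratios of replicates 1 to 6 were 0.76, 1.08, 0.89, 0.53, 0.78 and 0.82, replicate 2 being the highest and replicate 4 the lowest. The fit gave a log2 ratio of 0.81 ± 0.063 (SE, n = 6), with a 95% interval from 0.67 to 0.95, which is 1.75-fold higher with VIP. Within the 3 slides, each of which held 1 array of either dye orientation, it was 0.92, 0.71 and 0.80. It was the 9th largest positive ratio of the 18854 genes. In such bulk RNA, more cells of a type and more RNA per cell cannot be told apart.

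**Figure D1:**
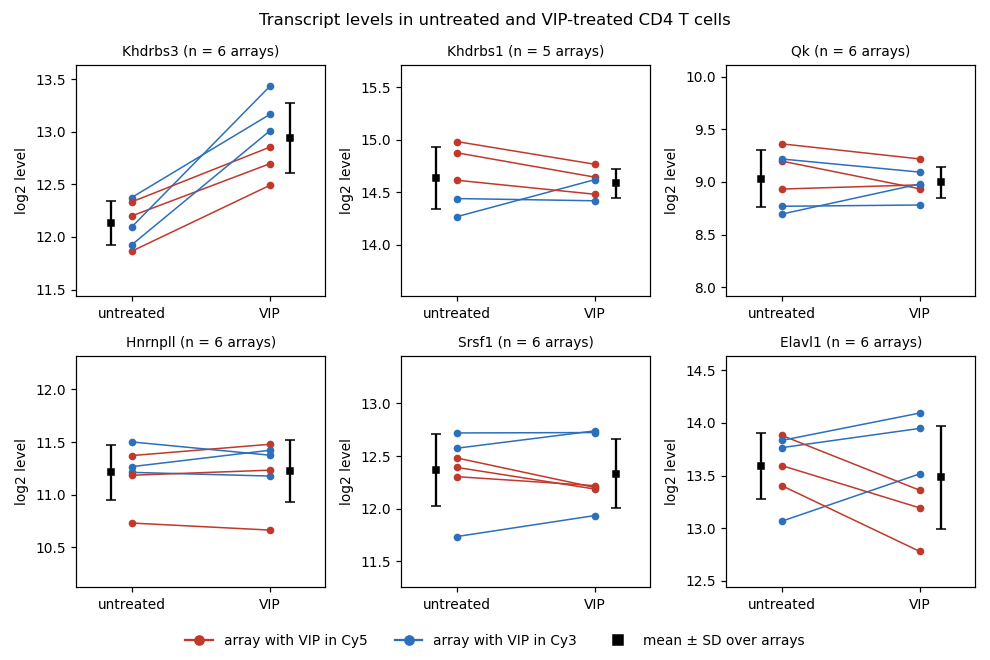
Log2 level of each measured member in untreated and VIP-treated cells, with a line for each array (red, VIP in Cy5; blue, VIP in Cy3) and the mean ± SD over arrays as black squares and bars. The Khdrbs3 levels with VIP, 12.49 to 13.43, all lie above the untreated levels, 11.86 to 12.37, while the levels of the other 5 genes overlap.

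Khdrbs1 (SAM68) is covered by 4 probes on the minus strand of chromosome 4, and none differed as Khdrbs3 did. On its brightest probe (129392162 to 129392221), measured on 5 arrays, the VIP-treated levels ran from 14.42 through a median of 14.62 to 14.77. The untreated levels ran from 14.27 through 14.61 to 14.98, enclosing those with VIP. The log2 ratio was -0.01 ± 0.060 (SE), with a 95% interval from -0.15 to 0.12. The overlapping pair of probes at 129393272 to 129393331 and 129393306 to 129393365 gave 0.02 ± 0.056 and 0.10 ± 0.051. The last probe (129399079 to 129399138) gave -0.01, but was well above background on only 3 arrays in the VIP channel and on 0 in the untreated channel.

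Khdrbs2 (SLM-1) could not be measured in the same way. Of its 4 probes on the plus strand of chromosome 1, the one at 32714406 to 32714465 was well above background on all 6 arrays for both treatments, but on 4 arrays the scanner software marked its spot as an outlier. On the remaining arrays the log2 ratio as measured was 0.22 on replicate 1, with VIP in Cy5, and -0.24 on replicate 4, with VIP in Cy3. With the marked spots kept, it was 0.21, 0.10 and 0.50 on replicates 1, 3 and 5. It was -0.23 on each of replicates 2, 4 and 6, so the sign followed the dye. The fit with the marked spots kept gave a log2 ratio of 0.02 ± 0.053 (SE) for this probe. The other 3 probes were well above background on at most 2 arrays in the VIP channel and at most 1 in the untreated channel, and no ratio is drawn from them.

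Qk (quaking) showed overlapping levels. On the minus strand of chromosome 17 at 10403164 to 10403223, the VIP-treated levels ran from 8.78 through a median of 8.98 to 9.22. The untreated levels ran from 8.69 through 9.07 to 9.36. The log2 ratio was -0.03 ± 0.060 (SE), with a 95% interval from -0.16 to 0.10. A further probe that the files name Qk, at 10513445 to 10513504, lies on the plus strand, opposite to the first, and gave -0.03 ± 0.043. Because of its strand it is not taken as a second reading of the Qk message.

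Of the splicing regulators outside the STAR family, Hnrnpll was read by 4 probes on the minus strand of chromosome 17. On the probe printed above (80433534 to 80434676) the VIP-treated levels ran from 10.66 through a median of 11.30 to 11.48, and the untreated levels from 10.73 through 11.24 to 11.50. Both channels were lowest on replicate 3, and the treatments overlapped almost completely. The log2 ratio was 0.01 ± 0.048 (SE), with a 95% interval from -0.09 to 0.12. The other Hnrnpll probes gave 0.05 (80429292 to 80429351), -0.07 (80431468 to 80431527) and 0.02 (80427393 to 80427452).

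Srsf1 was read by 2 probes on the plus strand of chromosome 11. On the brighter (87864550 to 87864609) the VIP-treated levels ran from 11.93 through a median of 12.21 to 12.74 and the untreated levels from 11.73 through 12.44 to 12.72. The log2 ratio was -0.03 ± 0.046 (SE), with a 95% interval from -0.14 to 0.07. The probe printed above (87862647 to 87862706) gave -0.07 ± 0.049.

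Elavl1 (HuR) showed the strongest dependence on dye. Its brightest probe (4288445 to 4288504, minus strand of chromosome 8) had VIP-treated levels from 12.78 through a median of 13.44 to 14.09 and untreated levels from 13.07 through 13.68 to 13.88. As measured, the log2 ratio was -0.40, -0.63 and -0.52 on replicates 1, 3 and 5, and 0.45, 0.18 and 0.26 on replicates 2, 4 and 6. The sign thus followed the dye, and the fitted dye effect was -0.41. With the dye in the model the log2 ratio was -0.11 ± 0.049 (SE), with a 95% interval from -0.22 to -0.00. The probe printed above (4289613 to 4289672) gave 0.02 ± 0.052 and the remaining one (4285514 to 4285573) 0.02 ± 0.047, so the probes of Elavl1 differed in sign. The dye effects of those probes were -0.37 and -0.21.

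Over the 15 kept probes of the other 5 measured members, the log2 ratio lay between -0.11 and 0.10, with 7 positive and 8 negative. These include the plus-strand probe that the files name Qk. The 95% intervals of the 15 probes reached from -0.22 to 0.21, so changes of up to that size are not excluded by these arrays. The median over the 6 measured members was -0.02, and over all genes -0.00. By the limma call used for all genes (adjusted p under 0.05), 1 of the 6 was called, as higher. Over all genes 3.15% were called, 1.76% as higher and 1.39% as lower. As the choice of members used this contrast, nothing is read from that count. The sign was the same in all 20 alternative settings for Khdrbs3, Elavl1 and Srsf1. It was not for Hnrnpll (positive in 17), Khdrbs1 (positive in 5) and Qk (positive in 3).

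**Figure D2:**
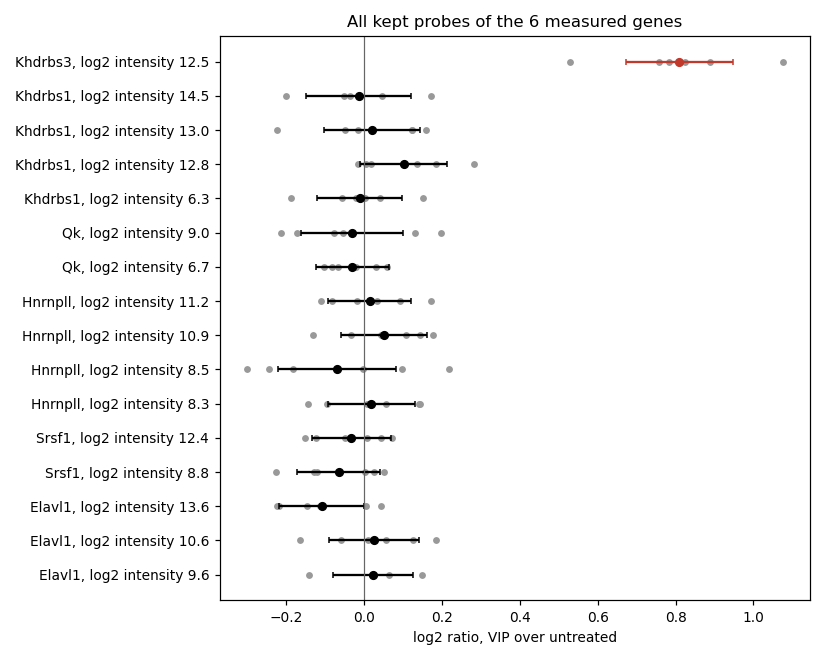
Fitted log2 ratio of VIP over untreated for the 16 kept probes of the 6 measured members, with 95% intervals as bars and the arrays' ratios, dye effect removed, as grey points. The Khdrbs3 interval, 0.67 to 0.95, lies apart from those of the other 15 probes, which together reach from -0.22 to 0.21.

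Some facts of the whole series bear on these values. The share of spots well above background was 59.1% to 67.8% for Cy3 and 65.5% to 79.0% for Cy5, and the number of arrays limits the precision. Over all genes, 331 were called higher and 263 lower with VIP. With the scanner software's processed signals the counts were 27 and 9, and with median centring of each array 211 and 101. The transcript Xist, made from the inactive X chromosome of females, had a log2 ratio as measured of -6.12 on replicate 3 and 2.03 on replicate 6, so the pools on those arrays differed between treatments in sex-linked RNA. Without these arrays Khdrbs3 stood at 0.79.

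The cell type was checked against its markers. All 11 CD4 T cell markers on the array were well above background. Cd4 itself had a log2 ratio of 0.01 ± 0.041 (SE), at a mean log2 intensity of 8.99. The summed log2 level of 8 of the markers was 17.8 to 18.3 with VIP and 17.8 to 18.4 without. Intensities were added before the log was taken, so this sum mainly follows the brightest markers. Of the 10 that were tested, 3 (30%) fell with VIP by limma, against 1.39% of all genes. Among them were the cytokine receptor Il7r (-0.63, 5 arrays, adjusted p = 0.00146) and Thy1 (-0.29, adjusted p = 0.0144). Il7r was not in the sum, which held only markers measured on every array. The median log2 ratio of the 10 was -0.10, with 4 positive and 6 negative, and 5 had an unadjusted p under 0.05 by limma. Over all genes, 3161 of 18854 had such a p. All markers on the array of CD8 T, B, NK, dendritic, erythroid and platelet cells, macrophages and neutrophils were well above background on at least 3 arrays as well. None of those tested was called, 1 CD8 T cell and 1 macrophage marker having an unadjusted p under 0.05. The summed log2 level of the 4 B cell markers was 12.9 to 13.9 with VIP and 13.0 to 14.0 without. For 1 CD8 T cell marker it was 12.2 to 13.1 with VIP and 11.9 to 12.8 without, and for 2 macrophage markers 8.90 to 9.82 and 8.75 to 9.68. Lyz2, the brightest macrophage marker tested (mean log2 intensity 14.9, 5 arrays), was likewise left out of that sum. The macrophage sum is therefore no measure of how much macrophage RNA was present. The part of other cells in the Khdrbs3 value was not tested.

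The wider machinery was described with lists of genes that hold no member. Across 6 lists of RNA-binding and splicing genes, 138 of 153 genes were tested, of which 2 rose and 3 fell by limma. That is 3.62%, near the 3.15% of all genes, and the median log2 ratio was -0.01, with 62 genes positive and 76 negative. An unadjusted p under 0.05 by limma was found for 20 of the 138 genes, against 3161 of all 18854, so the list counts below show no excess by themselves. It was found for 5 of the KH-domain genes, 4 of the SR proteins and kinases and 5 of the tissue-regulated factors. All 138 ratios lay between -0.27 and 0.39, below that of Khdrbs3 in size. With the scanner software's processed signals 0 of these genes were called in either direction.

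Among other KH-domain proteins, which share the RNA-binding fold of the STAR family, 0 of 19 tested genes rose and 1 fell. This was Mex3a, an RNA-binding ubiquitin ligase, at -0.25 ± 0.048 (SE, n = 6, adjusted p = 0.0189). Its VIP-treated levels ran from 7.61 through a median of 8.19 to 8.42 and its untreated levels from 7.97 through 8.43 to 8.64, so the levels overlapped although the ratio was negative on 6 of 6 arrays. When 1 replicate was left out, Mex3a kept an adjusted p under 0.05 only without replicate 2.

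SR proteins and their kinases, the group of Srsf1, gave 0 rises and 1 fall among 23 tested genes. The fall was Srsf12, a splicing repressor of this family, at -0.21 ± 0.048 (SE, n = 5, adjusted p = 0.0479), negative on 3 of the 5 arrays as measured. Its VIP-treated levels were 7.22 to 7.77 and its untreated levels 7.22 to 8.12. The call was lost without replicate 1, 2, 3 or 5, with adjusted p from 0.0502 to 0.158, and without replicate 4 or 6 too few arrays were left to test it.

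Of the tissue-regulated splicing factors, 2 of 25 tested genes rose and 1 fell, which is 12%, against 3.15% of all genes. Celf2, which controls splicing in T cells after activation, rose by limma, at 0.39 ± 0.066 (SE, n = 6, adjusted p = 0.0105). Its VIP-treated levels ran from 13.94 through a median of 14.13 to 14.29 and its untreated levels from 13.41 through 13.74 to 14.04, overlapping slightly. The other Celf2 probes gave 0.28, 0.23, 0.16 and 0.06, all positive. Leaving out any 1 replicate kept the call, with adjusted p from 0.00703 to 0.0481, but without replicates 3 and 6 together it was 0.32 with an adjusted p of 0.0894.

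Pspc1, a paraspeckle protein, rose by limma, at 0.22 ± 0.049 (SE, n = 6, adjusted p = 0.0383), with a positive ratio on 6 of 6 arrays. Mbnl2, a muscleblind splicing factor, fell, at -0.27 ± 0.053 (SE, n = 6, adjusted p = 0.0235), with a negative ratio on 6 of 6 arrays; its other probes gave -0.15 and -0.08. Both calls depended on which replicates were included. Pspc1 was lost without replicate 1, 2, 4, 5 or 6 (adjusted p up to 0.149) and Mbnl2 without replicate 2, 3, 4 or 5 (adjusted p up to 0.0958).

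No gene was called in the remaining lists. Of the 22 hnRNP proteins tested, relatives of Hnrnpll, 2 had an unadjusted p under 0.05, namely Hnrnpl (-0.15, adjusted p = 0.230) and Syncrip (-0.14, adjusted p = 0.244), and the list's median was -0.04. Other Syncrip probes ran from -0.00 to 0.10. Of the 12 proteins of AU-rich elements, the group of Elavl1, 3 passed the unadjusted threshold, led by Zfp36, which destabilises the messages it binds (-0.16, adjusted p = 0.0951), and Tial1 (-0.14, adjusted p = 0.127). Zfp36 gave -0.17 on its other probe, whereas Tial1 gave 0.05 there. Of the 37 core spliceosome genes, 1 passed the unadjusted threshold, the U2 component Sf3a1 (0.18, adjusted p = 0.0504), which was called when replicate 4 was left out, with no signal filter (adjusted p = 0.0454), with a strict one (adjusted p = 0.0476) and with slide as a random block (adjusted p = 0.0468). Sf3a1 gave 0.12 on its other probe. Next was Sf3b3 (-0.15, adjusted p = 0.304), whose other probes gave 0.04 and -0.13.

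Neither the signalling partners of SAM68 nor transcripts that the members are known to bind or splice held a called gene. Of 17 partners tested, 1 had an unadjusted p under 0.05, the adaptor Nck1 (0.09, adjusted p = 0.276), and next came the arginine methyltransferase Prmt1, which modifies SAM68 (-0.10, adjusted p = 0.351). Other Nck1 probes gave 0.07 and -0.05, so they differed in sign. The kinases Lck and Fyn, which act on SAM68, stood at -0.07 and -0.08. Of 17 bound or spliced transcripts tested, 2 passed the unadjusted threshold, Cdkn1a (0.25, adjusted p = 0.0799) and Fos (0.35, adjusted p = 0.120). Cdkn1a was called without replicate 2 (adjusted p = 0.0400) and with slide as a fixed block (adjusted p = 0.0470). Fos was called without replicate 3 (adjusted p = 0.0303) and without replicates 3 and 6 together (adjusted p = 0.0159). Ptprc, which encodes CD45, stood at 0.09 ± 0.063 (SE, n = 6), Cd44 at -0.01 and Bcl2l1 at 0.04; these are overall levels, and the forms made by splicing were not measured here.

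**Figure D3:**
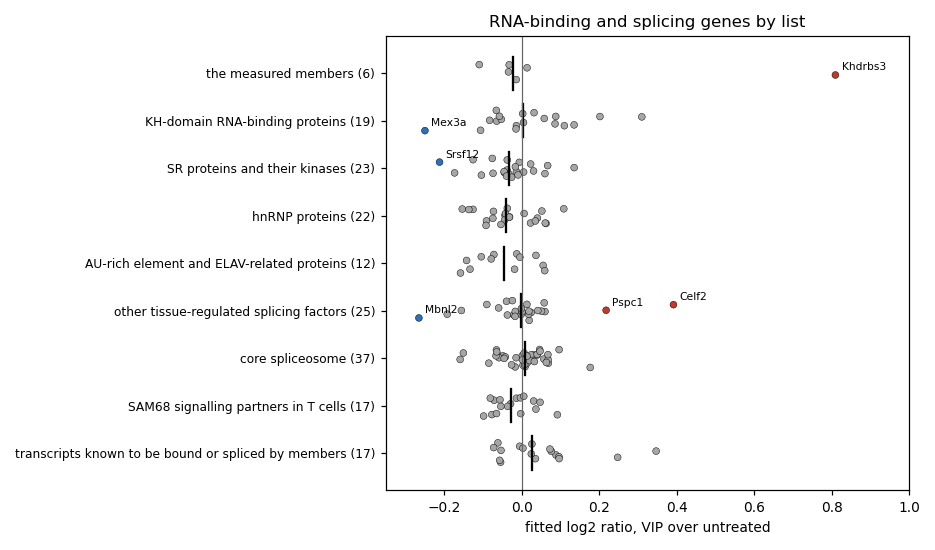
Fitted log2 ratio of VIP over untreated for the 6 measured members and for each tested gene of 8 lists (number tested in brackets), with list medians as vertical bars and called genes in red (higher) or blue (lower). Khdrbs3 at 0.81 lies beyond every listed gene, the nearest called one being Celf2 at 0.39.

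Genes whose ratios across the 6 arrays were most like those of Khdrbs3 were sought among 457 called genes measured on all arrays, by the root mean square distance between dye-corrected log2 ratios. The nearest was Eml1, which encodes a microtubule-associated protein, at a distance of 0.157 with a log2 ratio of 0.77. Rundc3b followed at 0.167 (log2 ratio 0.80) and Arhgap18, a GTPase-activating protein, at 0.192 (0.68). Nudt4, an inositol pyrophosphate hydrolase, was at 0.218 (0.74) and Ctla2a, a protease inhibitor, at 0.235 (0.71). The distance reflects mainly a similar size of ratio, since the arrays of Khdrbs3 ranged from 0.53 to 1.08 and those of Eml1 from 0.74 to 0.81.

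**Figure D4:**
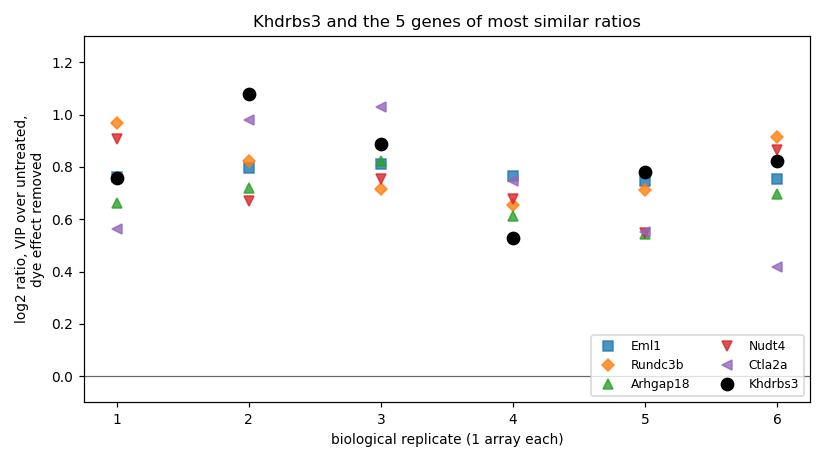
Log2 ratio of VIP over untreated on each of the 6 arrays, dye effect removed, for Khdrbs3 (black) and the 5 genes nearest to it in these ratios. All points lie above 0, Khdrbs3 between 0.53 and 1.08 and Eml1 between 0.74 and 0.81. The 5 genes were chosen by these same ratios, so their closeness to Khdrbs3 follows from the choice.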

How the data were processed

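The authors deposited scanner tables of spot intensity, per the file headers, which name Agilent Feature Extraction 9.5.1.1 and place the probes on mm9. The authors also deposited a table with a log10 ratio of VIP over untreated per spot, which matched the scanner's log10 ratio with the sign turned on replicates 2, 4 and 6. It served as an alternative, as did the software's processed signals.

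Mean signals and local medians of background were corrected with normexp (offset 50) and normalised by loess in limma 3.58.1 (R 4.3.3), control and outlier spots then being left out. Probes had to be well above background on 3 of 6 arrays in either treatment's channel and be measured on 2 arrays of each dye orientation; the brightest kept probe stood for a gene. Levels per channel were made comparable between arrays on the average intensity (Aquantile) and can carry dye bias. Names were updated through RefSeq by accession for 24844 of 41174 probes (60.3%), and 711 more followed a matched probe of the same name.

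The fit had terms for VIP and for dye, paired within arrays by design, with empirical Bayes moderation, 2-sided tests and Benjamini-Hochberg adjustment over 18854 genes. Ratios with the dye effect removed subtract a term fitted on the same arrays and are not independent readings. Code was tested on simulated data. Members, lists and tests were chosen with earlier results of these data known. Named were all members, the called genes of each list (at most 4 in each direction) or its 2 of lowest p where none was called, and the 5 genes most like Khdrbs3. Xist, Cd4, Il7r, Thy1, Lyz2, Mex3b, Mex3c, Mbnl1, Ptprc, Cd44, Bcl2l1, Lck and Fyn were added after their values were seen. The result of 1 marker gene is not reported here. Alternatives changed 1 step at a time, and leaving out replicates 3 and 6 was chosen after seeing the data.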

Additional observations from a re-analysis of the deposited data

Results flagged for a closer look

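Of 28 sets of member values looked at for a value far from the others, 1 held one, and chance flags about 1 in 20. On the intron-spanning Hnrnpll probe the VIP-treated level of replicate 3 was 10.66, the nearest of the other 5 being 11.18, a gap of 0.630 of the whole range. The untreated level on the same array was 10.73 and also the lowest of its group.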

How the results depend on the processing

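For the 6 measured members, no alternative moved a value by more than the spread between arrays, and Khdrbs3 ran from 0.74 (without replicate 2) to 0.88 (without replicate 4). By the limma call Khdrbs3 passed in 19 of 20 settings. It did not pass with channels unpaired, where its log2 ratio was 0.81 ± 0.138 (SE). As the choice of members used this contrast and all settings use the same arrays, nothing is read from that count. Without replicate 2 or without replicate 4, the Khdrbs1 value came from another of its probes.

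The counts over the 6 lists (2 higher, 3 lower) changed more. They were 0 and 0 with the scanner software's processed signals, with the deposited value table and with no replicate block (channels unpaired, where all genes gave 5 and 1). They were 1 and 0 with median centring, without a dye term and with an offset of 10, and 1 and 1 with outlier spots kept. With slide as a fixed block 1 was higher, and without replicates 3 and 6 together 0 were lower. Leaving out 1 replicate gave 1 to 3 higher and 0 to 1 lower.

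Counts over all genes (331 higher, 263 lower) fell to 29 and 9 with the value table, 85 and 37 without a dye term, 179 and 105 with an offset of 10, 246 and 151 with outlier spots kept, 148 and 98 without replicate 5, and 213 and 129 without replicates 3 and 6. The cause was not tested. Uncalled Tial1 was 0.07 with outlier spots kept. Outlier marks on 4 arrays kept the brightest Khdrbs2 probe out of the fit, and low signal its other 3.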

Other observations

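Beside Mex3a (-0.25), Mex3b stood at 0.20 ± 0.076 (SE, adjusted p = 0.205) and Mex3c at 0.31 ± 0.11 (SE, adjusted p = 0.183) in the limma fit. Beside Mbnl2 (-0.27), Mbnl1 stood at -0.16 ± 0.063 (SE, adjusted p = 0.246), on the same side. These genes were picked after their values were seen, and differences between paralogues were not tested.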
